A study of Mus musculus with 8 samples.

Results

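A set of 10 genes of adipose thermogenesis was followed in the epididymal white fat of mice that lacked LPA4, a receptor for lysophosphatidic acid, and of wild-type littermates. They are 6 genes of the heat-producing or brown fat programme (Ucp1, Cidea, Dio2, Elovl3, Fabp3 and Kcnk3), the regulator gene Prdm16, the coactivator genes Ppargc1a and Ppargc1b, and Esrra, which encodes the estrogen-related receptor alpha. The genes were chosen by name, and every probe set that the platform annotation assigns to 1 of them was taken, 23 of the 34945 probe sets with 1 gene symbol and 10 of 18193 genes. None of the 23 probe sets passed the test between genotypes, where 0.933% of all named probe sets did, so that a count of 0 is near the background. In the same arrays 28 of 306 probe sets of mitochondrial energy metabolism and biogenesis rose and 1 fell, and these 29 calls dropped to between 0 and 12 when any 1 array was left out. Only 3 of the 23 varied over the arrays by more than 0.1 log2, and for the other 20 the deposited values cannot show whether the RNA changed.

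Brown and beige adipocytes release heat when UCP1 lets protons pass the inner mitochondrial membrane without making ATP. Noradrenaline acts on beta-adrenergic receptors of these cells, cyclic AMP rises, and the transcription of Ucp1, Dio2 and Ppargc1a is raised. PGC-1 alpha and PGC-1 beta, the products of Ppargc1a and Ppargc1b, have no DNA-binding domain of their own and act on nuclear receptors such as estrogen-related receptor alpha, through which they raise genes of the respiratory chain and of fatty acid oxidation. White fat can carry many mitochondrial transcripts without the brown fat programme, so the comparison asked whether the higher mitochondrial genes of LPA4-KO fat came with higher browning genes.

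The LPA4-KO group held 4 male mice without a working copy of the X-linked Lpar4 gene (Lpar4 -/Y), and the WT group held 4 male wild-type littermates. All were 12 weeks old, of the C57BL/6 background, and fed standard chow; the labels name no cold exposure and no adrenergic drug. Epididymal white adipose tissue is the fat pad beside the testis, and each of the 8 Affymetrix 3′ arrays held the RNA of 1 mouse. The genotype as given names no cell type, and the deleted part of the gene is not given in the sources used here.

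Levels and differences are in log2 units, as deposited. Errors of means are SD with n = 4, errors of differences (LPA4-KO minus WT) are SE, and adjusted p-values are from limma over all 34945 named probe sets unless a fit of the varying probe sets alone is named. A probe set was called when its adjusted p was under 0.05. Lpar4 itself stood at 5.78, 5.86, 5.83 and 5.74 in LPA4-KO mice 1 to 4, against 6.48, 6.51, 6.53 and 6.54 in WT mice 1 to 4, at probe set 1452424_at (adjusted p = 0.00334). Its other 2 probe sets overlapped between the genotypes and were higher on average in LPA4-KO mice. Of the 34945 named probe sets, 28263 (80.9%) had a range of 0.1 log2 or less across arrays, with a median range of 0.00052, and are called nearly constant here. The other 6682 varied, with a median range of 0.53. The share that varied grew with level, being 0.172% at means of 5.27 to 5.88 and 64.7% at means of 8.95 to 14.07, when all were ranked by mean and split into 10 equal sets. Even so, Adipoq, the gene of the abundant fat hormone adiponectin, lay between 13.8278 and 13.8280 in all 8 arrays, so a flat value is not a measured lack of change. Signal above background was not tested.

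Ucp1, the uncoupling protein that defines thermogenic fat, showed no difference that these values can carry. Its only probe set, 1418197_at, read 6.01400, 6.01373, 6.01370 and 6.01390 in LPA4-KO mice 1 to 4, against 6.01375, 6.01398, 6.01370 and 6.01371 in WT mice 1 to 4. The genotypes overlapped and all 8 arrays lay within 0.000306 log2 of one another (adjusted p = 0.854). Of the 3494 probe sets in its band of levels, with means between 5.88 and 6.07, 0.716% varied.

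Dio2 encodes the deiodinase that makes active thyroid hormone inside brown fat cells and is a gene raised by cyclic AMP. Its promoter window is shown because it is the only one, among the 6 member windows searched, that holds the full cyclic AMP response element. The window runs from 250 bases before to 50 bases after the annotated start (RefSeq, GRCm38.p6, chr12:90738989-90739288, minus strand), and the capitals mark TGACGTCA, which begins 95 bases before the start.
Dio2: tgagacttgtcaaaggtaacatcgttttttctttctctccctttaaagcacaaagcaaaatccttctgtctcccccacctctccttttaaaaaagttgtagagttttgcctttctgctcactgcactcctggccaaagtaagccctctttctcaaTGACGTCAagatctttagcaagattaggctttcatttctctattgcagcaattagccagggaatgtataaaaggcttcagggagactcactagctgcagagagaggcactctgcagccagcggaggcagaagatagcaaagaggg

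RefSeq promoter windows were at hand for 6 of the 10 members (Ucp1, Dio2, Prdm16, Ppargc1a, Esrra and Fabp3). TGACGTCA, which reads the same on both strands, stood in 1 of these 6 windows, in 9 of 143 windows of the mitochondrial genes described below (6.29%) and in 588 of all 32851 windows (1.79%). Some genes have several overlapping windows, and the 9 mitochondrial windows belong to 7 genes. TNAAGGTCA, the extended site bound by estrogen-related receptors, was searched on both strands as well; both motifs end in GTCA, and neither contains the other. It stood in 0 of the 6 member windows, in 3 of the 143 mitochondrial windows (2.10%) and in 421 of all windows (1.28%). A match of letters is a description and not a bound site.

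At Dio2 probe set 1418937_at the values were 6.11126, 6.11134, 6.11121 and 6.11135 in LPA4-KO mice and 6.11117, 6.11104, 6.11116 and 6.11117 in WT mice. The other 2 Dio2 probe sets, 1418938_at and 1426081_a_at, were as flat. Elovl3, an elongase of very long fatty acids that rises in cold-exposed brown fat, lay between 5.9757 and 5.9758 in LPA4-KO mice and between 5.9754 and 5.9756 in WT mice. Fabp3, which binds fatty acids in heart, muscle and brown fat, averaged 6.4103 (LPA4-KO) and 6.4101 (WT) at 1416023_at. Kcnk3, a potassium channel gene used as a brown fat marker, had 3 probe sets, all with overlapping genotypes and the highest of them at 7.50188 for LPA4-KO and 7.50185 for WT mice.

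These flat readings separated the genotypes in several cases without a difference of any usable size. In 5 of the 20 nearly constant member probe sets (Dio2 1418937_at, Ppargc1a 1456395_at, Esrra 1460652_at, Elovl3 1420722_at and Fabp3 1416023_at) every LPA4-KO array was above every WT array, where 5.31% of all nearly constant probe sets were separated in that direction and 8.74% in either. The gaps between the groups were at most 4.74e-05 log2. Differences over the 20 probe sets ran from -0.000296 to 0.000276 log2, 16 of them positive, against 57.3% positive among all nearly constant probe sets. Adjusted p-values ran from 0.109 to 0.992. The unadjusted p was under 0.05 in 6 of the 23 member probe sets, all nearly constant, and in 16.9% of all named probe sets. It was under 0.05 in 0 of the 3 varying ones fitted with the other varying probe sets, where 39% passed, and in 11.7% of all nearly constant probe sets. Over all 23, the genotypes did not overlap in 5, against 12.5% of all named probe sets (6.75% with LPA4-KO higher) and 28.2% of the varying ones.

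**Figure D1:**
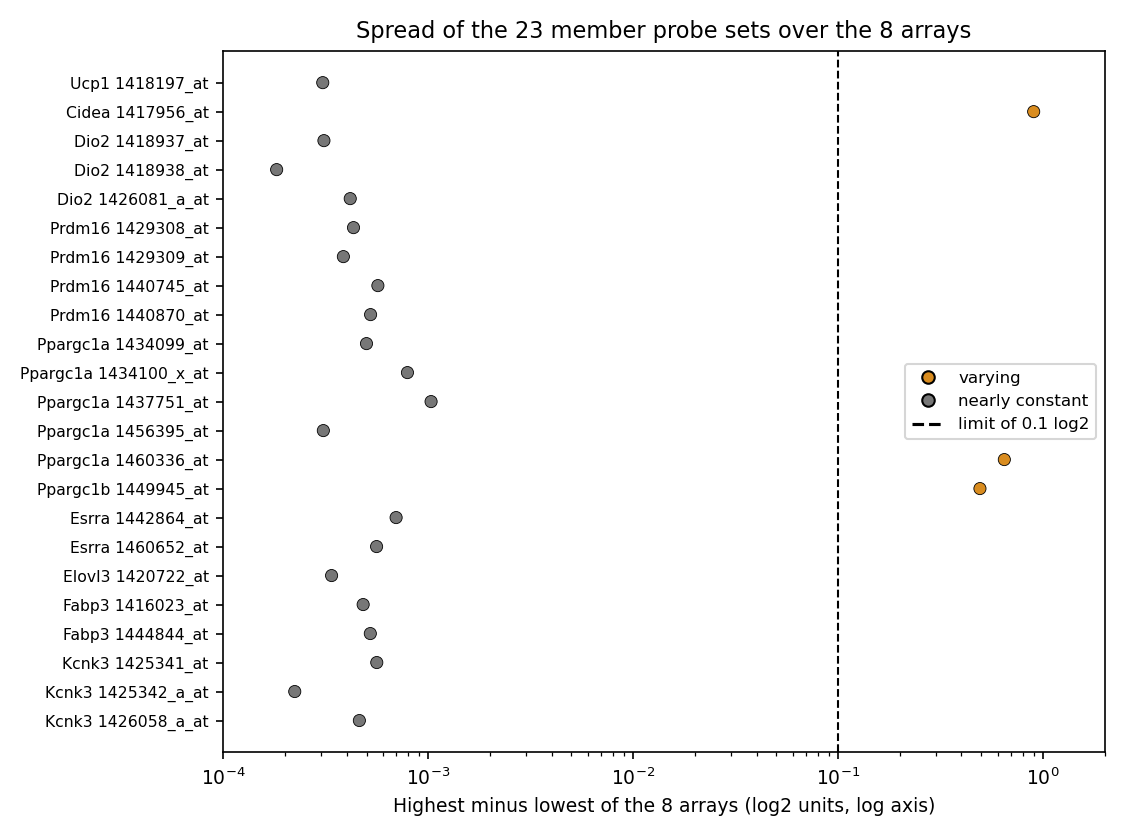
Range over the 8 arrays (highest minus lowest value, log2 units, log axis) of each of the 23 probe sets of the 10 genes; the dashed line is the limit of 0.1 log2. One probe set each of Cidea, Ppargc1a and Ppargc1b lies above the limit, and the other 20 lie between 0.000182 and 0.00103.

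In all, 0 of 23 member probe sets were called, against 0.933% of all named probe sets (326 of 34945), of which 0.612% were higher and 0.321% lower in LPA4-KO mice. When the 6682 varying probe sets were fitted alone, 0 of the 3 varying member probe sets were called, against 18.8% of the varying probe sets (8.35% higher, 10.5% lower). With so few varying probe sets, a count of 0 lies close to the background. The scaling of the arrays mattered for the flat ones. After quantile normalization 18 of the 20 nearly constant member probe sets were called higher, with a median difference over the 20 of 0.00316 log2, and 19712 of all named probe sets were called, 18596 of them higher, against 214 of 326 higher without it. Among varying probe sets fitted alone, 558 of 1259 calls were higher as deposited, 796 of 1269 after quantile normalization and 712 of 1288 after median centring.

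Cidea, which encodes a lipid droplet protein of brown fat cells, was the member with the widest spread. It stood at 6.93, 6.44, 6.36 and 7.26 in LPA4-KO mice 1 to 4 and at 6.38, 6.497, 6.54 and 6.46 in WT mice 1 to 4. LPA4-KO mice 1 and 4 were above all others, while LPA4-KO mice 2 and 3 lay within or below the WT values. The means were 6.75 ± 0.42 in LPA4-KO and 6.47 ± 0.07 in WT mice, which differ by 0.28 ± 0.21 with a 95% interval from -0.22 to 0.78 (adjusted p = 0.555; adjusted p = 0.278 in the varying probe sets alone; exact two-sided permutation p = 0.40). Without LPA4-KO mouse 4 the difference was 0.11 ± 0.15.

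Ppargc1a had 5 probe sets, and 4 of them were nearly constant. The fifth, 1460336_at, gave 7.17, 7.01, 7.003 and 6.97 in LPA4-KO mice and 7.32, 6.71, 6.67 and 6.93 in WT mice. WT mouse 1 had the highest value of all 8, and the other 3 WT mice lay below every LPA4-KO mouse. The difference was 0.13 ± 0.15, with a 95% interval from -0.23 to 0.49 (adjusted p = 0.727; adjusted p = 0.497 in the varying probe sets alone; exact permutation p = 0.457). Without WT mouse 1 it was 0.27 ± 0.08 with an adjusted p of 0.217 from limma over all named probe sets and 0.0698 over the varying ones.

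Ppargc1b, the paralogue with a part in basal mitochondrial gene expression, was read by 1449945_at alone. Its values were 8.33, 8.51, 8.28 and 8.16 in LPA4-KO mice and 8.22, 8.30, 8.02 and 8.11 in WT mice. LPA4-KO mouse 2 was the highest and WT mouse 3 the lowest, with overlap between the genotypes. The difference was 0.16 ± 0.09, a 1.12-fold higher mean in LPA4-KO mice, with a 95% interval from -0.06 to 0.38 (adjusted p = 0.444; adjusted p = 0.237 in the varying probe sets alone; exact permutation p = 0.171). The intervals of Cidea, Ppargc1a and Ppargc1b thus all held 0, and their upper ends were 0.78, 0.49 and 0.38 log2.

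Esrra, the nuclear receptor gene through which both coactivators act, was nearly constant at both of its probe sets. Its LPA4-KO mean was 7.4869 and its WT mean 7.4866 by 1460652_at, while 1442864_at gave 6.9080 (LPA4-KO) and 6.9083 (WT), so the 2 probe sets differed in direction. Prdm16, which commits precursors to the brown fat fate, had 4 probe sets, all nearly constant, with differences between -6.00e-05 and 5.02e-05 log2 and overlapping genotypes.

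**Figure D2:**
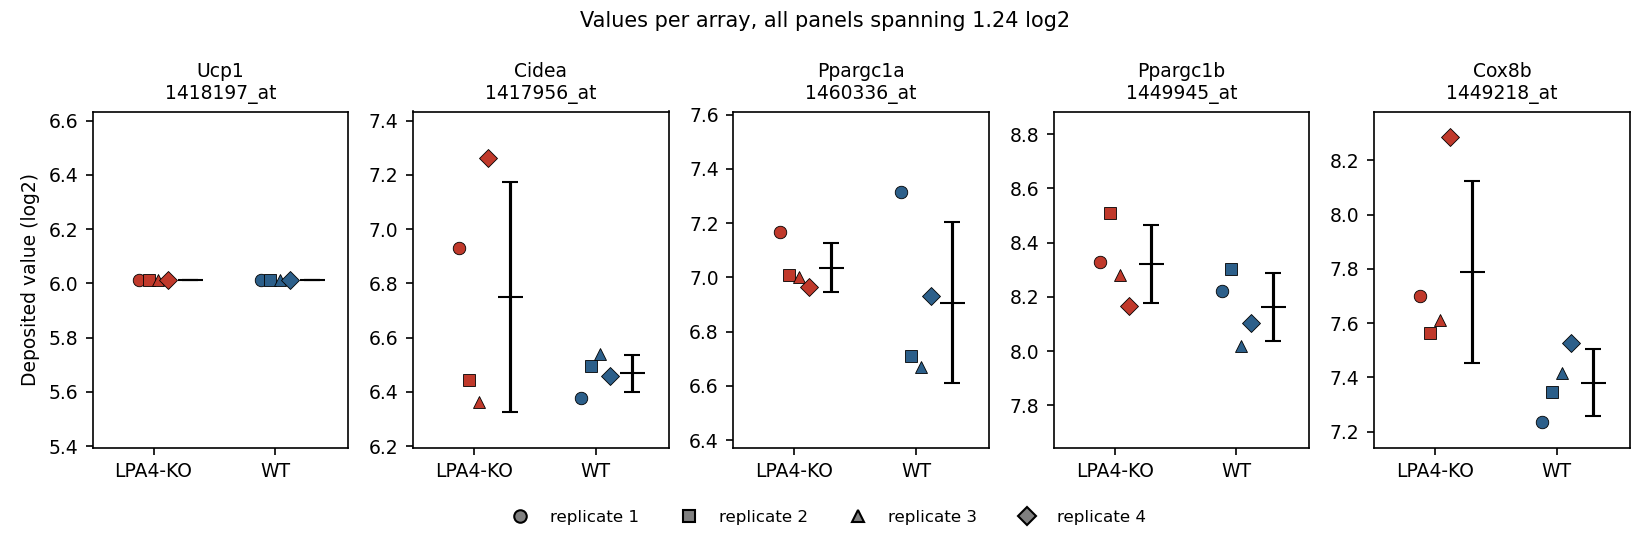
Deposited log2 values of Ucp1, Cidea, Ppargc1a, Ppargc1b and the brown fat gene Cox8b in each array, LPA4-KO (red) left of WT (blue), with mean and SD in black; all panels span the same number of log2 units. Ucp1 is flat, Cidea is high in LPA4-KO mice 1 and 4, and Cox8b is the panel of a varying probe set in which the genotypes do not overlap.

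Around the members, the wider list of thermogenic effectors and brown adipocyte genes held no call either, where 0.933% of all named probe sets were called. Of its 26 measured genes with 42 probe sets, 16 probe sets varied, 8 with a positive and 8 with a negative difference, and the median over them was -0.01 log2, against -0.05 over all varying probe sets. In the varying probe sets alone 1 rose and 1 fell (6.25% each), against 8.35% and 10.5% of all varying probe sets. Oplah, which encodes 5-oxoprolinase, had 7.97, 7.87, 7.69 and 7.86 in LPA4-KO mice and 7.59, 7.40, 7.32 and 7.60 in WT mice (0.37 ± 0.09, adjusted p = 0.111 over all and 0.028 over the varying probe sets). Gatm, an enzyme of creatine synthesis, differed by -0.36 ± 0.11 (adjusted p = 0.178 over all and 0.0493 over the varying ones).

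Cox8b, the isoform of a cytochrome oxidase subunit found in brown fat and muscle, had the smallest p of the varying brown adipocyte markers. It stood at 7.70, 7.56, 7.61 and 8.29 in LPA4-KO mice and at 7.23, 7.34, 7.42 and 7.53 in WT mice. Every LPA4-KO value was above every WT value, where 12.9% of varying probe sets were separated in that direction. The difference was 0.41 ± 0.17 (95% interval from -0.01 to 0.82) and did not pass (adjusted p = 0.301 over all and 0.0883 over the varying probe sets; exact permutation p = 0.0286, the smallest possible with 4 against 4). Cox7a1, its partner among the brown fat isoforms, was nearly constant, averaging 6.1818 (LPA4-KO) and 6.1819 (WT). P2rx5, a surface marker of brown fat cells, averaged 6.71 ± 0.17 in LPA4-KO and 6.98 ± 0.24 in WT mice (-0.26 ± 0.14), and Slc36a2, an amino acid transporter of brown fat, 10.17 ± 0.07 and 10.07 ± 0.13 in the same order (0.10 ± 0.07). Zic1, Lhx8 and Otop1, further brown fat markers, were nearly constant.

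Pdk4, the kinase that shuts off pyruvate dehydrogenase and a target of PGC-1, was not called. It averaged 10.30 ± 0.67 in LPA4-KO and 10.91 ± 0.31 in WT mice (-0.61 ± 0.36, adjusted p = 0.453). Among beige adipocyte markers, 0 of 19 probe sets were called, against 0.933% of all named probe sets. Of the 6 that varied 5 had a negative and 1 a positive difference, where 43.2% of all varying probe sets were positive. Klhl13 differed by -0.29 ± 0.17 and Car4, a carbonic anhydrase, by 0.01 ± 0.08.

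The beta-adrenergic and cyclic AMP arm upstream of Ucp1 had 0 of 54 probe sets called in the fit of all named ones, where 0.933% were. In the varying probe sets alone 1 of 14 rose (7.14%), near the 8.35% of all varying probe sets. This was Prkaca, the catalytic subunit of protein kinase A, at 10.07, 9.96, 9.97 and 9.89 in LPA4-KO mice and 9.72, 9.72, 9.76 and 9.82 in WT mice (0.22 ± 0.04, adjusted p = 0.082 over all and 0.0403 over the varying probe sets). Pde3b, which degrades cyclic AMP under insulin, averaged 12.335 in LPA4-KO and 12.14 in WT mice (0.19 ± 0.12, adjusted p = 0.501). Gnas, the stimulatory G protein subunit between receptor and adenylyl cyclase, lay the other way at its brightest probe set, 1450186_s_at, with means of 11.77 in LPA4-KO and 11.89 in WT mice (-0.12 ± 0.05, adjusted p = 0.263 over all and 0.138 over the varying probe sets). At 1443375_at, picked after its values were seen, Gnas ranged from 6.32 to 6.47 in LPA4-KO mice and from 6.62 to 7.54 in WT mice, without overlap (-0.59 ± 0.20, adjusted p = 0.228 over all and 0.0508 over the varying probe sets).

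Among transcriptional regulators of brown fat, 0 of 61 probe sets were called over all named probe sets, against 0.933% of all. In the fit of the varying probe sets alone 0 of 23 were called, against 18.8% of all varying probe sets. Pparg, the master regulator of all adipocytes, averaged 10.82 in LPA4-KO and 10.75 in WT mice (0.07 ± 0.10), and Nrip1, a corepressor of Ucp1 and of mitochondrial genes, 10.33 and 10.18 in the same order at 1434384_at (0.15 ± 0.20). Of the 23 varying probe sets 17 had a positive and 6 a negative difference, where 43.2% of all varying probe sets were positive. Ebf2, picked after its values were seen, was lower on average in LPA4-KO mice at all its varying probe sets. It differed by -0.21 ± 0.07 at 1418494_at, -0.36 ± 0.23 at 1449102_at and -0.16 ± 0.14 at 1449101_at (limma adjusted p = 0.207, 0.48 and 0.627).

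PGC-1 coactivators and their partners formed a list of 33 genes with 90 probe sets, of which 1 was called, 1.11% against 0.612% of all named probe sets. It was Polrmt, the mitochondrial RNA polymerase, with 7.81, 7.83, 7.81 and 7.81 in LPA4-KO mice and 7.54, 7.63, 7.54 and 7.53 in WT mice (0.26 ± 0.02, adjusted p = 0.0255). Of the 23 varying probe sets of the list 17 had a positive difference, against 43.2% of all varying probe sets. The median of the list was 0.10 log2, against -0.05 over all varying probe sets. Ppara, the fatty acid receptor that PGC-1 alpha coactivates, differed by 0.39 ± 0.13, 0.42 ± 0.16 and 0.24 ± 0.09 at its 3 varying probe sets (adjusted p = 0.21, 0.26 and 0.249 from limma). Prkaa2, a catalytic subunit of the energy sensor AMPK, differed by 0.29 ± 0.08 (adjusted p = 0.15). Ppara and Prkaa2 were picked after their values were seen, and neither passed.

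Genes described as targets of estrogen-related receptors and PGC-1 rose in part. Of 47 probe sets of 21 measured genes 8 rose and 0 fell (17.0% higher, against 0.612% of all), and in the varying probe sets alone 12 of 29 rose and 0 fell (41.4%, against 8.35%). Together with Polrmt these 8 are the 9 calls of the thermogenic and PGC-1 lists, which dropped to 3 without WT mouse 1, to 2 without WT mouse 2 and to 0 without any other array. The 8 belong to Cycs (3), Sod2 (2), Mdh2, Slc25a20 and Etfdh. At 1422484_at Cycs, the cytochrome c of the respiratory chain, had 10.69, 10.54, 10.47 and 10.63 in LPA4-KO mice and 10.11, 10.13, 9.96 and 9.82 in WT mice, with no overlap (0.58 ± 0.08, adjusted p = 0.0435). Sod2, the superoxide dismutase of the mitochondrial matrix, differed by 0.35 ± 0.05 at both called probe sets. Acadm, a classic target in fatty acid oxidation, differed by 0.16 ± 0.06 (adjusted p = 0.244), and Cox5b by 0.16 ± 0.06 at its brightest probe set (adjusted p = 0.235). Of these 21 genes 14 also stand in the mitochondrial lists below.

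**Figure D3:**
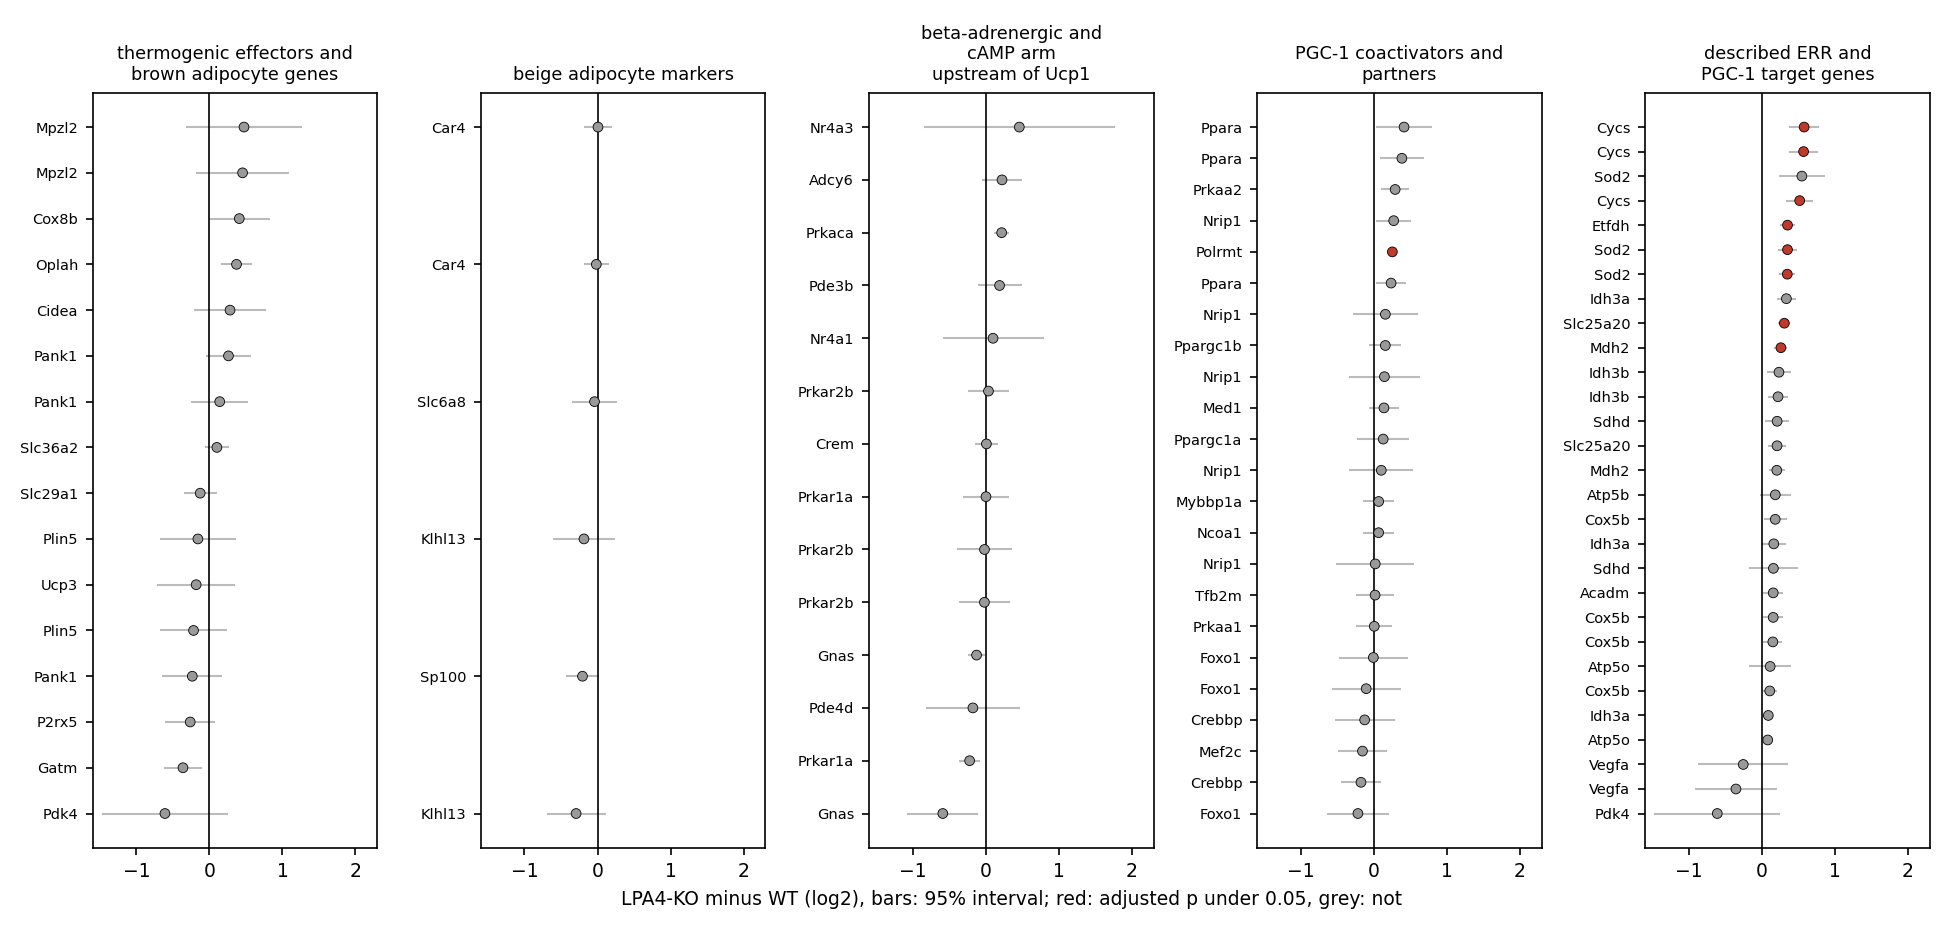
Difference between LPA4-KO and WT (log2) of each varying probe set in 5 gene lists, with 95% intervals from limma; red points have an adjusted p under 0.05 over all named probe sets. The lists of brown adipocyte, beige and beta-adrenergic genes hold no red point and lie on both sides of 0, Polrmt is the red point among PGC-1 partners, and Cycs, Sod2, Mdh2, Slc25a20 and Etfdh are red among the targets.

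The mitochondrial side of the comparison held 7 lists with 139 measured genes and 306 probe sets, of which 172 varied. Of the 306, 28 rose (9.15%, against 0.612% of all) and 1 fell, a nearly constant Idh2 probe set with a difference of -0.000556 log2. In the varying probe sets alone 62 of 172 rose (36.0%, against 8.35% of all varying probe sets) and 1 fell. The 1 that fell was Cpt1a at 1434866_x_at, from 7.40 to 7.73 in LPA4-KO and from 7.86 to 8.05 in WT mice, without overlap. It differed by -0.36 ± 0.08 (adjusted p = 0.101 over all and 0.0262 over the varying probe sets). The median difference was 0.05 log2 over all 306 and 0.19 over the 172, against 2.4e-05 and -0.05 over all named and all varying probe sets, and 161 of the 172 were positive. That mitochondrial genes were higher in these arrays was known beforehand and is given here only to set the members beside it. By list, 5 of 49 probe sets rose in the tricarboxylic acid cycle, 7 of 76 in complex I, 5 of 30 in complexes II and III with cytochrome c, 1 of 28 in complex IV, 2 of 32 in ATP synthase, 3 of 31 in fatty acid oxidation, and 5 of 69 in import and biogenesis. The genes with a risen probe set were Pcx, Mdh2, Dld and Dlat of the cycle and its entry, Ndufc2, Ndufa5, Ndufs1 and Ndufv2 of complex I, Cyc1, Uqcrc2 and Cycs of the cytochrome c segment, and Cox5a of complex IV. The others were Atp5pb and Atp5g3 of ATP synthase, Slc25a20, Etfb and Etfdh of fatty acid oxidation, and Phb2, Hspd1 and Polrmt of import and biogenesis. The brightest probe sets of these lists include those of Pdha1, Ndufa1, Uqcrb, Cox6a1, Cox4i1, Atp5c1 and Hadh, which were not called, with differences between 0.05 and 0.16 log2 (limma adjusted p between 0.191 and 0.814). A bright Tomm20 probe set, 1423079_a_at, was nearly constant, with a difference of 0.002 log2 (limma adjusted p = 0.731). The 63 calls in the varying probe sets alone became 24 to 59 when 1 array was left out.

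**Figure D4:**
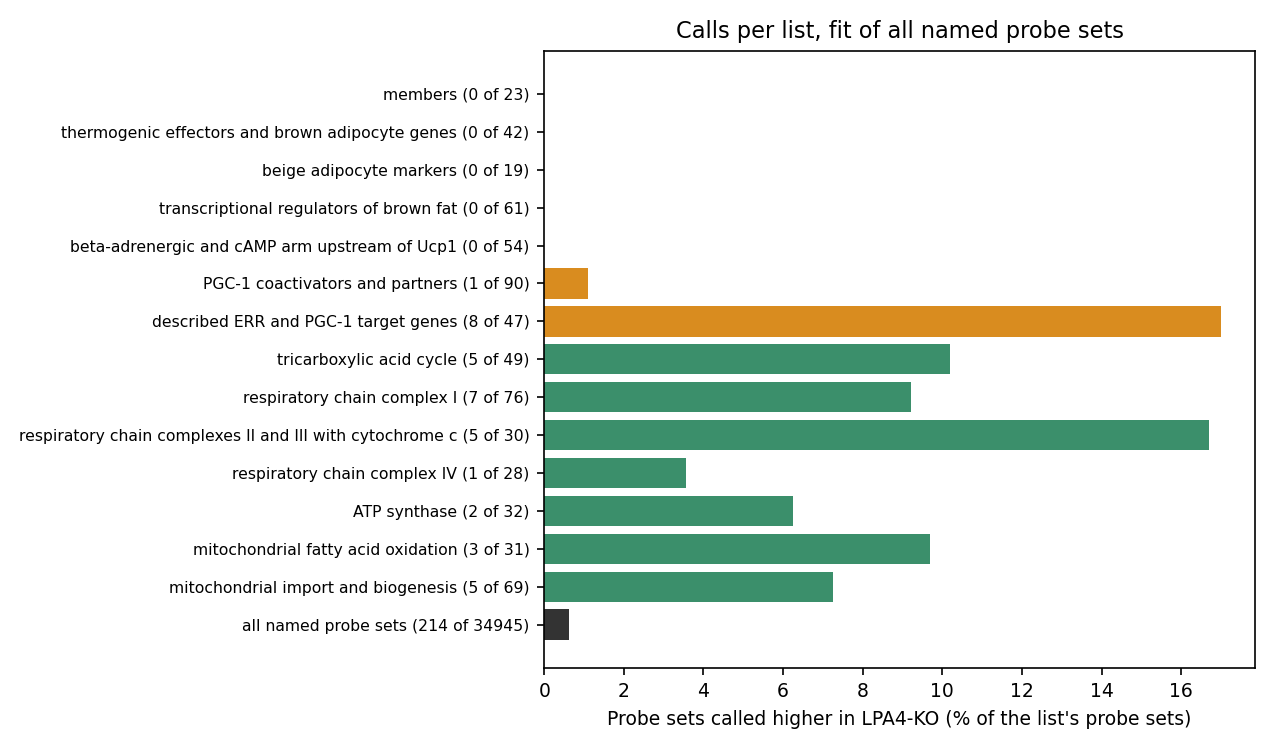
Share of each list's probe sets called higher in LPA4-KO mice (adjusted p under 0.05, fit of all named probe sets), with the counts in the labels; orange marks the 10 members and the thermogenic and PGC-1 lists, green the mitochondrial lists, dark grey all named probe sets. The members and the brown, beige, adrenergic and regulator lists have 0 calls. The PGC-1 coactivators and partners have 1.11%, and the described targets of estrogen-related receptors and PGC-1 have 17.0%. The mitochondrial lists lie between 3.57% and 16.7%, against 0.612% of all named probe sets.

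Short stretches of promoter are shown for genes that rose and hold 1 of the motifs, for comparison with the Dio2 window. Other mitochondrial genes hold a motif and were not called: Ndufa10, Ndufb2, Ogdh, Uqcrfs1 and Ndufa11 hold TGACGTCA, Sdhd and Ndufb4 hold TNAAGGTCA. A relation between motif and rise was not tested. Capitals mark the motif (RefSeq, GRCm38.p6). In Cycs (chr6:50566720-50566748, minus strand) and in Mdh2, the malate dehydrogenase of the cycle (chr5:135778512-135778540, plus strand), it is TGACGTCA. In Atp5g3, a subunit of the ATP synthase ring (chr2:73911359-73911388, minus strand), it is the reverse complement of TNAAGGTCA.
Cycs: ggccagagggTGACGTCAcgcacgtccac
Mdh2: gagagaatcgTGACGTCAggcctcgctcg
Atp5g3: tgttacaaagTGACCTTGAgcgtcttcccc

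Mdh2 had 11.16, 11.11, 11.09 and 11.15 in LPA4-KO mice and 10.81, 10.97, 10.83 and 10.86 in WT mice at 1416478_a_at (0.26 ± 0.04, adjusted p = 0.0401). Atp5g3 had 12.35, 12.35, 12.40 and 12.34 in LPA4-KO mice and 12.09, 12.20, 12.13 and 12.11 in WT mice (0.23 ± 0.03, adjusted p = 0.0333). In both genes the genotypes did not overlap.

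Array by array, the mean of the 172 varying mitochondrial probe sets was 10.30, 10.24, 10.27 and 10.35 in LPA4-KO mice 1 to 4 and 10.07, 10.125, 10.11 and 10.11 in WT mice 1 to 4. Its genotypes did not overlap, those of Cidea, Ppargc1a and Ppargc1b did. Among LPA4-KO mice, numbers 4 and 1 had the highest mitochondrial mean and also the highest Cidea, and the order of the 4 was the same for the mitochondrial mean and for Cox8b, which is itself 1 of the 172. LPA4-KO mice 2 and 3 had mitochondrial means above every WT mouse with Cidea at 6.44 and 6.36, inside or below the WT range of 6.38 to 6.54. Ppargc1a did not follow that order, since WT mouse 1 combined the lowest mitochondrial mean with the highest Ppargc1a value. Ppargc1b was highest in LPA4-KO mouse 2, which had the lowest mitochondrial mean of its group. The arrays fall into 2 groups by their mitochondrial mean, with 4 mice in each, so no correlation over all 8 is given, and a relation within the genotypes was not tested.

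**Figure D5:**
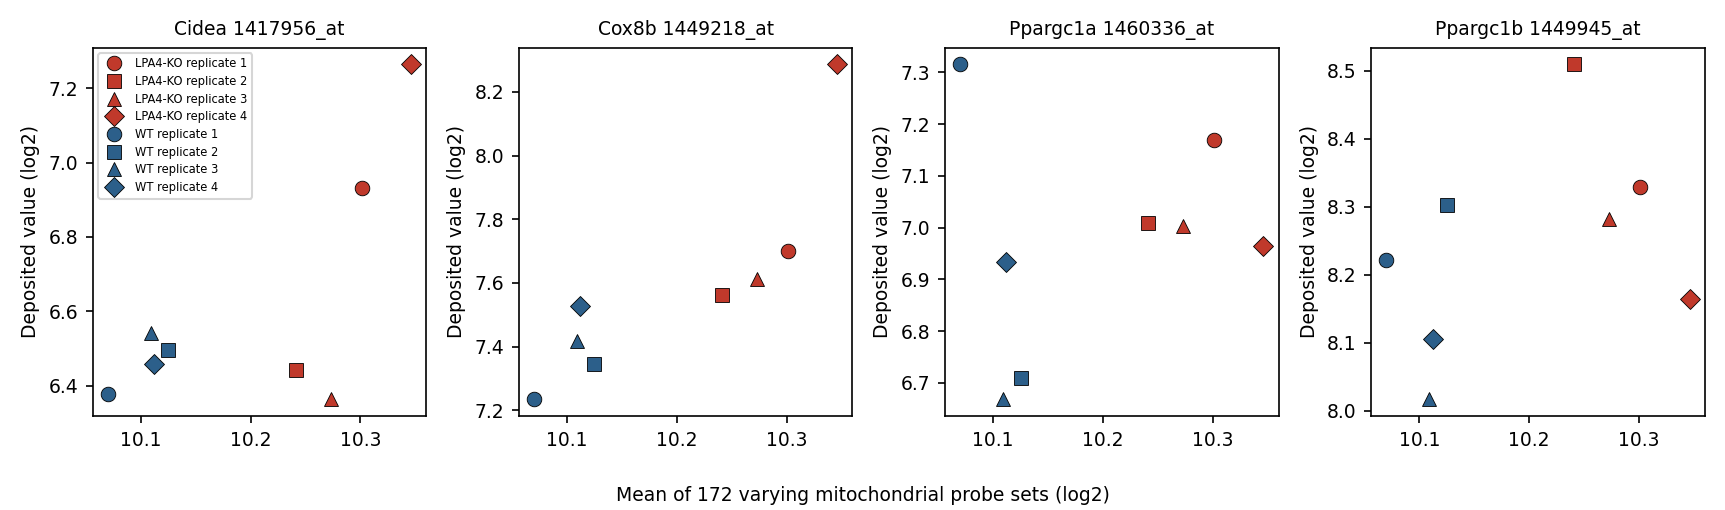
Log2 values of Cidea, Cox8b, Ppargc1a and Ppargc1b (vertical axes) against the mean of 172 varying mitochondrial probe sets (horizontal axis, log2) in each LPA4-KO (red) and WT (blue) array. The 4 LPA4-KO mice lie between 10.24 and 10.35 on the horizontal axis and the WT mice between 10.07 and 10.125, while the vertical positions of Cidea, Ppargc1a and Ppargc1b overlap.

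The genes whose values over the 8 arrays were most like those of a member were listed by Pearson's r among varying probe sets, as a description. For Ppargc1a these were Dkc1 (r = 0.965), which serves telomerase and ribosomal RNA modification, Acat1 (0.962), the mitochondrial thiolase of ketone body and isoleucine breakdown, Coq5 (0.95), an enzyme of coenzyme Q synthesis, Ripk4 (0.95) and Srpk2 (0.95). For Cidea, added after the values were seen, they were Mecr (0.96), the reductase of mitochondrial fatty acid synthesis, Pccb (0.926), a subunit of propionyl-CoA carboxylase, Mccc1 (0.90), a subunit of the carboxylase of leucine breakdown, Cnnm2 (0.89) and Tlcd3b (0.885). For Ppargc1b, also added then, they were G3bp2 (0.92), a stress granule protein, Tmem267 (0.909), the replication licensing gene Cdt1 (0.892), Prkar2a (0.89), a regulatory subunit of protein kinase A, and Nr2f1 (0.887). None of these 15 probe sets was called (limma adjusted p between 0.229 and 0.904). Ucp1 was given no such list, as its values differ from the fourth decimal on.

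Some markers of other cells in the pad differed between the genotypes as well. In whole tissue, fewer cells of a type and less RNA per cell cannot be told apart. Of 24 probe sets of progenitor and fibroblast markers 3 fell (Dpt, Fn1 and Dcn), where 0.321% of all named probe sets fell. The mean of the 19 that varied ranged from 8.43 to 8.80 in LPA4-KO mice and from 8.99 to 9.28 in WT mice, without overlap. In the varying probe sets alone 12 of these 19 fell (63.2%), as did 4 of 17 of mesothelial (23.5%) and 2 of 11 of macrophage markers (18.2%). Of all varying probe sets 10.5% fell. Mesothelial and macrophage markers had 0 calls in the fit of all named probe sets, and their means overlapped between the genotypes. Mesothelial markers ranged from 7.49 to 8.005 in LPA4-KO and from 7.78 to 8.60 in WT mice, and macrophage markers from 9.25 to 9.51 and from 9.37 to 9.74, in the same order. The mean of the 6 varying endothelial probe sets did not overlap, from 8.32 to 8.61 in LPA4-KO and from 8.62 to 8.72 in WT mice. Of the 12 endothelial probe sets 0 were called in either fit. White adipocyte markers overlapped, from 10.91 to 11.115 in LPA4-KO and from 10.88 to 11.16 in WT mice, with 0 of 14 probe sets called over all and 1 of the 10 varying ones higher in the fit of those alone. That was Agt, the angiotensinogen gene, from 9.85 to 10.35 in LPA4-KO and from 9.46 to 9.53 in WT mice (0.55 ± 0.11, adjusted p = 0.0833 over all and 0.0136 over the varying probe sets). Retn, the gene of resistin, did not overlap either and was not called (0.18 ± 0.06, adjusted p = 0.196 over all and 0.0589 over the varying ones). LPA4-KO mice 1 and 4, which were high in Cidea, had the lowest mesothelial means of all 8, at 7.52 and 7.49. The part of these cells in the mitochondrial or Cidea values was not tested. Of the brown adipocyte markers, 4 of 10 probe sets varied, and their mean overlapped between LPA4-KO (7.67 to 8.15) and WT mice (7.61 to 7.80). Skeletal and heart muscle markers, relevant because muscle shares Fabp3 and Cox8b with brown fat, varied in 2 of 30 probe sets, and their mean overlapped between LPA4-KO (8.38 to 9.19) and WT mice (8.67 to 9.32). The mean of the smooth muscle and pericyte markers overlapped as well, from 8.27 to 8.51 in LPA4-KO and from 8.24 to 8.68 in WT mice. Among them Acta2, the smooth muscle actin, fell in the varying probe sets alone, to between 10.36 and 10.48 in LPA4-KO mice, against 11.36 to 12.32 in WT mice (-1.31 ± 0.21, adjusted p = 0.0573 over all and 0.00663 over the varying probe sets). The markers of epididymal duct (8 probe sets) and of nerve and Schwann cells (12) were all nearly constant, and of 5 red blood cell probe sets only Alas2 varied, from 8.03 to 8.48 in LPA4-KO and from 7.61 to 8.02 in WT mice without overlap (0.48 ± 0.13, adjusted p = 0.142 over all and 0.028 over the varying probe sets, where it rose).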

How the data were processed

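RNA of epididymal fat from 8 mice was hybridised to 1 Affymetrix 3′ array each, per the labels' protocols. The authors deposited 1 value per probe set and array, taken here as log2 from the range of the values (5.27 to 14.07; array medians 6.501 to 6.511). The submitters' processing notes name R 2.14.0; how background, normalization and summarisation were done, and the log base, is not stated in them. The number of arrays limits the precision.

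Of 45101 probe sets, 34945 had 1 gene symbol in the platform annotation, 932 had several, 9160 had none listed and 64 were controls. The first were fitted with limma 3.58.1 in R 4.3.3 (lmFit, eBayes with trend, Benjamini-Hochberg adjustment, threshold 0.05), and a second fit held the 6682 that spanned over 0.1 log2. Single probe sets had exact two-sided permutation tests over 70 arrangements. Groups came from the labels. The labels do not say whether replicate numbers pair mice, and the main fit used no pairing. Deviations of same-numbered arrays correlated at 0.0884, 0.0826, 0.273 and -0.202, values too few to exclude a pairing. Motifs were searched in RefSeq promoter windows, and TGACGTCA was added after the values were seen. The fit of all named probe sets was tested on simulated data. Changes were planted in varying probe sets only, so the recovery of changes in nearly constant ones was not tested. Members and lists were chosen with earlier results of these data known. The rule named all members and, of each further list, the called genes, the 2 with the smallest p and the 2 with the highest level; of the nearly constant and the uncalled marker probe sets among these, only some are named. The alternatives were other probe set filters, scalings, limma settings, 1 value per gene, a replicate block and leaving out each array; the last was added for the varying probe sets after the data were seen.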

Additional observations from a re-analysis of the deposited data

Results flagged for a closer look

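In 3 of the 46 groups of 4 arrays examined (23 probe sets, 2 genotypes), 1 array lay far from the other 3 relative to the range of its group; chance gives such a gap in about 1 in 20 groups. WT replicate 2 was the highest WT array for Ucp1 (6.01398), and the lowest WT array for Dio2 1418937_at (6.11104). LPA4-KO replicate 2 was the lowest LPA4-KO array for Esrra 1442864_at (6.90782). All 3 probe sets are nearly constant, and the ranges of these groups were 0.000278, 0.00013 and 0.000288 log2.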

How the results depend on the processing

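Counts of calls depended on which probe sets were fitted and on the scaling, while no member probe set that was tested was called in any setting except quantile normalization, which called 18 of 23. Settings with fewer probe sets tested 3 members (varying alone), 7 (above the median level) or 10 (1 value per gene). All named probe sets gave 326 calls, the mitochondrial lists 29 and the thermogenic and PGC-1 lists 9. These became, in the same order, 1259, 63 and 16 with varying probe sets alone, 19712, 167 and 147 after quantile normalization, 1269, 73 and 20 with varying probe sets quantile normalized, and 1288, 71 and 22 with them median centred. All named probe sets gave 595 calls above the median level, where Cidea had no value, 535 with array weights and 1126 at a threshold of 0.1, which called 52 of the mitochondrial lists. The mitochondrial lists had 17 calls with 1 probe set per gene, 18 with the mean of a gene's probe sets (5 for the thermogenic and PGC-1 lists) and 19 with robust eBayes. With the replicate block, 3 probe sets were called in all, 0 of the mitochondrial and 0 of the thermogenic and PGC-1 lists. Whether the replicate numbers pair the mice is not known. The cause of these changes was not tested.

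Leaving out 1 array in turn gave 10 to 125 calls among all named probe sets, 0 to 12 in the mitochondrial and 0 to 3 in the thermogenic and PGC-1 lists; 12 and 3 came without WT replicate 1. In the varying probe sets alone the ranges were 494 to 1352, 24 to 59 and 10 to 19. Over all settings the difference of Cidea lay between 0.11 and 0.41 log2, of Ppargc1a between 0.03 and 0.27 and of Ppargc1b between 0.10 and 0.21, with none reversed and none past the threshold. The 0.03 is from the mean of all 5 Ppargc1a probe sets, 4 of them nearly constant. At 1460336_at itself the lowest difference was 0.05, without WT replicate 3. The median of the nearly constant member probe sets, 5.0e-05 log2, was 0.00316 after quantile normalization and 0.00445 after median centring.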
